A study of Homo sapiens with 16 samples.

Results

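The 9 genes described here are TAF4B, VPS9D1-AS1, TFAP4, STEAP1, PDE3B, HIPK2, MKNK2, FAM136A and C1QBP, out of 60719 gene identifiers counted in the series. They were chosen because their read counts were much lower after Myc knockdown in one or both of the cell populations studied. They were thus chosen by the counts of the 12 small interfering RNA (siRNA) libraries, so the responses to knockdown are given as descriptions with their standard errors (SE) and without a test. The untreated libraries took no part in the choice and were tested.

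The cells were MDA-MB-231, a triple-negative breast cancer line, and a TXNIP knockout population derived from it with CRISPR/Cas9 (called TKO). Knockout cells were isolated as single cells, so TKO also carries whatever distinguished those cells before editing. Polyadenylated RNA was sequenced from 6 groups, which were untreated parental cells (n = 2), untreated TKO cells (n = 2), and both populations 48 h after a non-targeting siRNA (siNT, n = 3 each) or a Myc siRNA (siMyc, n = 3 each). Levels are given as CPM, the share of a library's counts scaled to a common size, with trimmed-mean-of-M-values factors over the 16 libraries. Library totals were 18953668 to 59799444 counts. Counts stand for single reads in untreated libraries and for read pairs in siRNA libraries. In the file headers, the names of the parental siRNA libraries and of the TKO siRNA libraries begin with different numbers. What the number stands for is not stated, and any batch behind it cannot be told apart from population. The study calls the replicates of untreated cells and of the TKO siRNA groups biological, and the labels do not say whether they were separate cultures, so p-values measure the spread between libraries. Bulk RNA does not tell a change in every cell from a change in some of them. ESR1 was at most 0.298 CPM and PGR at most 0.0819 CPM in every library, while VIM ran from 1846 to 3105 CPM. ERBB2 ran from 74.3 to 107 CPM. Of markers of other cell types, PDGFRB ran from 5.01 to 21.8 CPM and PTPRC reached 1.44 CPM. CD3E, CDH5 and DCN were at most 0.105 CPM.

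MYC itself was read first. In TKO it was at 124, 147 and 134 CPM after siNT and at 58.8, 58.5 and 57.9 CPM after siMyc. In parental cells it was at 123, 125 and 129 CPM after siNT and at 64.8, 64.9 and 67.3 CPM after siMyc. MYC mRNA fell by 1.21 on the log2 scale in TKO (SE 0.06, adjusted p = 1.69e-11) and by 0.96 in parental cells (SE 0.09, adjusted p = 0.0297), both by the edgeR quasi-likelihood test, adjusted by Benjamini-Hochberg. TXNIP, the gene targeted for knockout, was at 276 and 277 CPM in untreated parental cells and at 12.7 and 46.5 CPM in untreated TKO cells. Its log2 fold change there, -3.29 (SE 0.65, adjusted p = 0.0587, edgeR), did not pass the threshold of 0.05. After siNT its means were 303 CPM in parental cells and 7.23 CPM in TKO. After siMyc TXNIP rose by 0.40 in TKO (SE 0.09, adjusted p = 0.00247) and by 0.57 in parental cells (SE 0.09, adjusted p = 0.0458), both by edgeR.

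Of the parental siRNA libraries, siNT replicate 1 and siMyc replicate 3 deviated from their groups together (r = 0.883 over genes, which are not independent). In both, genes with an exonic length under 2000 bases sat above the other libraries of the group, by medians of 0.34 and 0.31 on the log2 scale, and genes of 8000 bases or more sat below them, with medians of -0.33 and -0.33. With 1 of these libraries in each arm, the differences between siMyc and siNT stayed close to the same size for the 9 genes when both were left out or given a term of their own. Without the pair the SE of the parental response was smaller for 6 of the 9, but not for TFAP4 (0.11 either way), VPS9D1-AS1 (0.19 in place of 0.18) or PDE3B (0.24 in place of 0.21).

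Myc is a basic helix-loop-helix leucine zipper transcription factor. With its partner Max it binds E-box sequences, of which CACGTG is the canonical form, in the promoters of genes for ribosome production, nucleotide synthesis, mitochondrial function and cell growth, and it is often highly active in triple-negative breast cancer. TXNIP is an arrestin-family protein that limits how much glucose a cell takes in.

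The 250 bases in front of the annotated start are shown for the 3 genes that hold a searched motif, among them TAF4B and VPS9D1-AS1, the 2 genes with the lowest responses. The sequences are from RefSeq (GRCh38.p14), which supplied a window for 6 of the 9 genes, namely TAF4B, VPS9D1-AS1, STEAP1, FAM136A, MKNK2 and C1QBP. Capitals mark CACGTG, the non-canonical E-box CACGCG with its reverse complement CGCGTG, and CAGCTG, the sequence recognised by TFAP4. The letters CACGTG and CAGCTG read the same on both strands, and a CACGCG match can overlap a CGCGTG match.
TAF4B, chr18:26226195-26226444, plus strand: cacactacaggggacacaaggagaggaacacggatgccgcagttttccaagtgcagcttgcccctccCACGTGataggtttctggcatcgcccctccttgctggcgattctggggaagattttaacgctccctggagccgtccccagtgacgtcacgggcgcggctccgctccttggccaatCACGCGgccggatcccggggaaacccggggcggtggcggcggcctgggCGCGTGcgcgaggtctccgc
VPS9D1-AS1, chr16:89711606-89711855, plus strand: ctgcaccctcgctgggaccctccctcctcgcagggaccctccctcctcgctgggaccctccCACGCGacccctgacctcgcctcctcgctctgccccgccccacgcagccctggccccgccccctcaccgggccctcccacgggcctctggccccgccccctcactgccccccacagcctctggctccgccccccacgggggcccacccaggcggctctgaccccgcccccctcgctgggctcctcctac
STEAP1, chr7:90154219-90154468, plus strand: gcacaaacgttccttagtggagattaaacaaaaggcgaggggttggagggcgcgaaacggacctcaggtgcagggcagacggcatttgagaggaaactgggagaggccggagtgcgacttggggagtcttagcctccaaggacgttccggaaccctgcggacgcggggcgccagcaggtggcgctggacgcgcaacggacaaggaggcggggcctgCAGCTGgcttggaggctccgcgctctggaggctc

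TAF4B held the canonical CACGTG at position -183 from the start, CACGCG at -68, and CGCGTG at -20 and at -3, the last of which runs past the end of the stretch shown and is not in capitals. VPS9D1-AS1 held 1 CACGCG, at -189. STEAP1 held CAGCTG at -34 and CGCGTG at 7, past the end of the stretch shown. No searched motif was found in the windows of FAM136A, MKNK2 and C1QBP, which says only that these letters are not there. Over windows of 250 bases before to 50 after the start, CACGTG was present in 1 of the 6 genes and in 7.26% of all 35116 windows. CACGCG on either strand was present in 3 of the 6 and in 11.4% of all windows, and CAGCTG in 1 of the 6 and in 17.9%. A match is a stretch of letters and not a measured binding site.

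TAF4B (ENSG00000141384, chr18:26226445-26391685, plus strand) encodes a cell-type-restricted subunit of TFIID, the general factor that recruits RNA polymerase II to promoters, and is a paralog of TAF4. TKO libraries had 16.01, 16.9 and 16.8 CPM after siNT and 4.23, 4.57 and 4.75 CPM after siMyc. Parental cells had 9.18, 12.1 and 11.8 CPM after siNT and 4.07, 4.07 and 2.57 CPM after siMyc. The highest siMyc library lay below the lowest siNT library in both populations, and the siMyc mean was 27.2% of the siNT mean in TKO and 32.4% in parental cells. The log2 fold change was -1.87 (SE 0.09) in TKO and -1.65 (SE 0.20) in parental cells. In both populations only VPS9D1-AS1 had a lower value among genes with a mean of at least 1 CPM.

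TAF4, the broadly expressed paralog, was at a mean of 27.7 CPM in the siRNA libraries of TKO and fell by 0.22 there (SE 0.06, adjusted p = 0.0121, the edgeR quasi-likelihood test, adjusted by Benjamini-Hochberg). In parental cells its log2 fold change was -0.07 (SE 0.16, adjusted p = 0.906 by the same edgeR test). A term for the pair of parental libraries, chosen after seeing the data, left it at -0.07 (SE 0.06, adjusted p = 0.493, edgeR). Of 15 other TFIID subunits fixed as a list, 2 rose and 3 fell in TKO, against 13.3% and 13.9% of all genes tested in that comparison. TAF5, a scaffold subunit, had the lowest adjusted p of the list and fell by 0.49 (SE 0.07, adjusted p = 1.41e-05 by the edgeR test). The median of the list in TKO was -0.05, beside 0.01 over all genes tested. In parental cells the median of the list was -0.06, and TAF5 was at -0.49 (SE 0.11, adjusted p = 0.0907, edgeR). With the pair term TAF5 was at -0.49 there (SE 0.06, adjusted p = 8.16e-09, edgeR).

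TFAP4 (ENSG00000090447, chr16:4257186-4273075, minus strand) encodes AP4, a basic helix-loop-helix leucine zipper factor that is a known target of Myc and itself regulates cell cycle genes. In TKO it was at 10.8, 11.99 and 11.8 CPM after siNT and at 7.84, 7.02 and 5.99 CPM after siMyc. The parental libraries were at 10.6, 10.3 and 9.47 CPM after siNT and at 5.09, 5.24 and 5.62 CPM after siMyc. The groups did not overlap in either population, with siMyc means at 60.3% and 52.5% of siNT. The log2 fold changes were -0.73 (SE 0.10) in TKO and -0.95 (SE 0.11) in parental cells, the 216th and the 52nd place from the lowest among 13406 and 13408 ranked genes. Of 8 other factors of the class that can bind E-boxes (USF, TFE/MITF and SREBP families), 4 rose and none fell in TKO. Over all genes tested there, 13.3% rose and 13.9% fell. TFEB, a regulator of lysosomal genes, had the lowest adjusted p and rose by 0.50 (SE 0.10, adjusted p = 0.000425, the edgeR quasi-likelihood test, adjusted by Benjamini-Hochberg). In parental cells TFEB had a log2 fold change of 0.25 (SE 0.13) and TFE3, its relative with the lowest adjusted p there, 0.28 (SE 0.09, adjusted p = 0.213 by the edgeR test). With the pair term, TFEB was at 0.25 (SE 0.06, adjusted p = 0.00169) and TFE3 at 0.28 (SE 0.04, adjusted p = 7.13e-07), edgeR.

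VPS9D1-AS1 (ENSG00000261373, chr16:89711856-89718165, plus strand) is a long non-coding RNA transcribed from the strand opposite to VPS9D1. TKO libraries had 6.12, 6.91 and 5.49 CPM after siNT and 0.995, 0.979 and 1.06 CPM after siMyc. In parental cells it was at 2.57, 3.50 and 3.26 CPM after siNT and at 0.877, 0.962 and 0.838 CPM after siMyc. The siMyc libraries of both populations sat within a narrow range near 1 CPM, each from 35 to 50 counts, while the siNT mean of TKO was 1.99 times that of parental cells. The siMyc mean was 16.4% of siNT in TKO and 28.7% in parental cells, and the log2 fold changes of -2.60 (SE 0.15) and -1.82 (SE 0.18) were the lowest of all ranked genes in each population. In untreated cells it was at 8.496 and 10.6 CPM in parental cells and at 13.2 and 11.5 CPM in TKO.

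VPS9D1 itself, whose counts come from the other strand of the same locus, was at 8.48, 9.84 and 8.90 CPM after siNT and at 16.3, 14.7 and 13.1 CPM after siMyc in TKO. Parental cells had 15.02, 15.4 and 14.2 CPM after siNT and 19.1, 20.6 and 20.4 CPM after siMyc. VPS9D1 rose by 0.70 in TKO (SE 0.09, adjusted p = 4.81e-06) and had a log2 fold change of 0.41 in parental cells (SE 0.10, adjusted p = 0.102), by the edgeR quasi-likelihood test, adjusted by Benjamini-Hochberg. With a term for the pair of parental libraries, a setting chosen after seeing the data, the parental value was 0.41 (SE 0.06, adjusted p = 1.4e-06 by the edgeR test). The antisense RNA and the sense gene therefore lay on opposite sides of 0 in each population. The next genes on the chromosome, SPATA2L and ZNF276, had log2 fold changes of 0.33 and -0.19 in TKO, neither past the threshold (adjusted p = 0.0541 and 0.0859, edgeR). The library kit keeps strand and the counting used it, so reads of the overlapping pair are separated by strand.

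**Figure D1:**
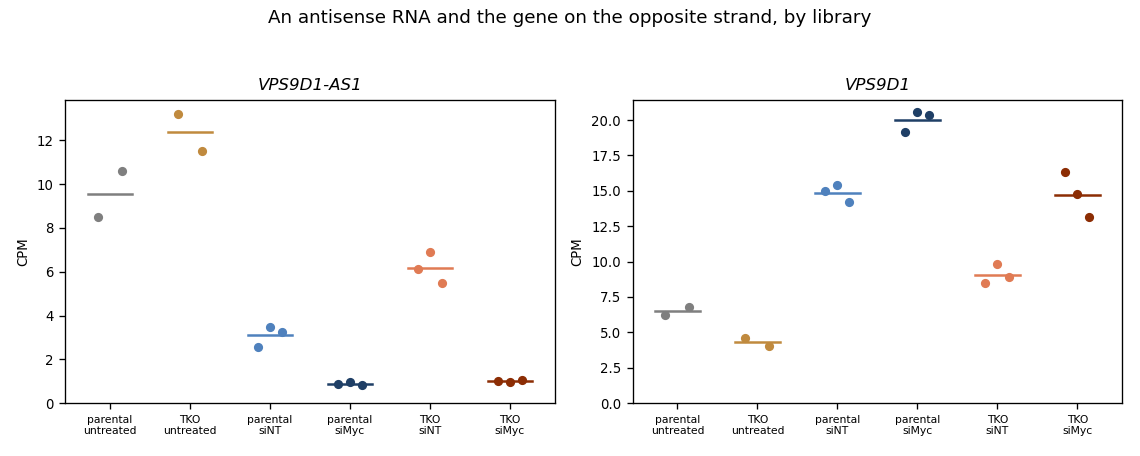
Level in CPM (vertical axes, each starting at 0) of VPS9D1-AS1 and of VPS9D1 in the 16 libraries, by group; points are libraries and lines are group means. After siMyc the antisense RNA lay near 1 CPM in both populations, while VPS9D1 lay at 13.1 to 16.3 CPM in TKO and at 19.1 to 20.6 CPM in parental cells, above all siNT libraries of the same population.

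STEAP1 (ENSG00000164647, chr7:90154456-90164829, plus strand) encodes a cell surface protein of the six-transmembrane metalloreductase family and is studied as a tumour antigen. In TKO it was at 17.9, 18.1 and 17.5 CPM after siNT and at 7.13, 6.85 and 7.31 CPM after siMyc. The parental libraries were at 12.7, 11.3 and 10.0 CPM after siNT and at 4.66, 5.22 and 5.44 CPM after siMyc. The groups did not overlap, with siMyc at 39.8% of siNT in TKO and 45.0% in parental cells, for log2 fold changes of -1.33 (SE 0.08) and -1.17 (SE 0.13). In untreated cells STEAP1 was at 3.58 and 3.70 CPM in parental cells and at 15.2 and 13.3 CPM in TKO. The parental siNT mean was 3.12 times the parental untreated mean, against 1.25 times in TKO, a difference across single-read and paired-read libraries that was not tested. With 1544 exonic bases STEAP1 is among the short genes. Genes under 2000 bases had medians of 0.98 for parental siNT minus untreated and 0.48 for TKO siNT minus untreated, on the log2 scale. The values for STEAP1 were 1.51 and 0.32.

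STEAP2, a metalloreductase whose gene starts 2761 bases after STEAP1, fell by 0.30 in TKO (SE 0.10, adjusted p = 0.0371) and had a log2 fold change of -0.47 in parental cells (SE 0.21, adjusted p = 0.351), by the edgeR quasi-likelihood test, adjusted by Benjamini-Hochberg. STEAP3, at a mean of 123 CPM in TKO, had values of 0.01 (SE 0.06, adjusted p = 0.950) and 0.03 (SE 0.12, adjusted p = 0.963) by the same edgeR tests. With a term for the pair of parental libraries, the parental value of STEAP2 was -0.46 (SE 0.17, adjusted p = 0.0356, edgeR). STEAP1B and STEAP4 had means of 0.242 and 0.362 CPM in TKO and of 0.213 and 0.223 CPM in parental cells, levels at which little can be read. STEAP1B is a close copy of STEAP1, so reads that match both could be lost or split in counting.

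PDE3B (ENSG00000152270, chr11:14643804-14872044, plus strand) encodes a cyclic nucleotide phosphodiesterase best known for lowering cAMP downstream of insulin in fat and liver cells. It was the lowest of the 9 genes. TKO libraries had 0.862, 1.49 and 1.16 CPM after siNT and 0.369, 0.626 and 0.693 CPM after siMyc. In parental cells it was at 1.39, 1.57 and 2.05 CPM after siNT and at 0.754, 0.655 and 0.658 CPM after siMyc. These levels stand for 13 to 98 counts per library. The groups did not overlap in either population, with siMyc at 48.1% and 41.3% of siNT and log2 fold changes of -1.03 (SE 0.27) and -1.29 (SE 0.21). In untreated cells PDE3B had 12 and 9 counts in parental cells and 11 and 5 counts in TKO. The siNT means were 4.25 times the untreated mean in TKO and 3.23 times in parental cells, the largest such ratios of the 9 genes. They too cross single-read and paired-read libraries and were not tested.

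Among 15 other phosphodiesterases that act on cAMP, 11 could be tested in TKO, where 1 rose and 2 fell. The shares over all genes tested were 13.3% and 13.9%. PDE8A, a high-affinity cAMP phosphodiesterase, had the lowest adjusted p and fell by 0.49 (SE 0.06, adjusted p = 2.62e-06, the edgeR quasi-likelihood test, adjusted by Benjamini-Hochberg). In parental cells PDE8A had a log2 fold change of -0.30 (SE 0.13, adjusted p = 0.358) and PDE1C, which had the lowest adjusted p of the list there, 0.34 (SE 0.11, adjusted p = 0.193), by the same edgeR test. PDE3A, the paralog of PDE3B, had a mean of 0.0825 CPM in parental cells and too few counts to be tested in TKO. PSMA1, a proteasome subunit gene that lies 169 bases from PDE3B on the opposite strand, fell by 0.27 in TKO (SE 0.06, adjusted p = 0.000739, edgeR).

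HIPK2 (ENSG00000064393, chr7:139561570-139777998, minus strand) encodes a nuclear serine/threonine kinase that phosphorylates p53 after DNA damage and acts on many transcriptional cofactors. In TKO it was at 225, 212 and 233 CPM after siNT and at 101.99, 105 and 108 CPM after siMyc, without overlap. Parental cells had 21.8, 46.9 and 51.4 CPM after siNT and 29.9, 30.2 and 15.6 CPM after siMyc. The parental groups overlapped, since siNT replicate 1 lay below siMyc replicates 1 and 2. The low library of each arm is the one that stood apart from its group for long genes in general, and with 15622 exonic bases HIPK2 is the longest of the 9 genes. On the log2 scale, HIPK2 differed from the mean of the other libraries of the group by -1.15 in siNT replicate 1 and by -0.92 in siMyc replicate 3, past the medians of genes of 8000 bases or more. The part of RNA length or quality in this was not tested.

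The siMyc mean of HIPK2 was 47.0% of siNT in TKO (log2 fold change -1.09, SE 0.05) and 63.1% in parental cells (-0.69, SE 0.34). With 1 library left out, the parental value was -0.99 without siNT replicate 1, -0.56 without siNT replicate 2, -0.47 without siNT replicate 3, -0.84 without siMyc replicate 1, -0.83 without siMyc replicate 2 and -0.45 without siMyc replicate 3. Without both libraries of the pair it was -0.74 (SE 0.06), and within the pair alone siMyc replicate 3 was at 71.6% of siNT replicate 1, against 61.2% among the other 4 libraries. HIPK1 had log2 fold changes of -0.11 (SE 0.05, adjusted p = 0.132) and -0.15 (SE 0.24, adjusted p = 0.853) in TKO and parental cells, by the edgeR quasi-likelihood test, adjusted by Benjamini-Hochberg. HIPK3 rose by 0.34 in TKO (SE 0.06, adjusted p = 0.000126) and was at 0.31 in parental cells (SE 0.18, adjusted p = 0.506, edgeR). With a term for the pair of parental libraries, its parental value was 0.31 (SE 0.05, adjusted p = 1.38e-06, edgeR). Of 8 other HIPK and DYRK kinases tested in TKO, 2 rose (HIPK3 and DYRK1B) and none fell, beside 13.3% and 13.9% of all genes. DYRK1B had the lowest adjusted p of the list in parental cells, at 0.62 (SE 0.10, adjusted p = 0.0513, edgeR), and rose by 0.46 in TKO (SE 0.09, adjusted p = 0.000369, edgeR).

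MKNK2 (ENSG00000099875, chr19:2037465-2051244, minus strand) encodes MNK2, a kinase that phosphorylates the cap-binding protein eIF4E. TKO libraries had 99.9, 109 and 101 CPM after siNT and 62.8, 65.1 and 57.1 CPM after siMyc. The parental libraries were at 111, 118 and 117 CPM after siNT and at 69.8, 68.9 and 72.3 CPM after siMyc. The groups did not overlap, and the siMyc means were 59.6% and 60.8% of siNT, with a log2 fold change of -0.74 in both populations (SE 0.06 in TKO and 0.09 in parental cells). In untreated cells it was at 60.8 and 58.6 CPM in parental cells and at 59.1 and 54.7 CPM in TKO. The siNT mean was 1.82 times the untreated mean in TKO and 1.94 times in parental cells, and the siMyc libraries lay closer to the untreated level. These comparisons cross single-read and paired-read libraries and were not tested.

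MKNK1, which encodes the related kinase MNK1, rose by 0.20 in TKO (SE 0.06, adjusted p = 0.0152) and was at 0.17 in parental cells (SE 0.10, adjusted p = 0.502), by the edgeR quasi-likelihood test, adjusted by Benjamini-Hochberg. With a term for the pair of parental libraries the parental value was 0.17 (SE 0.05, adjusted p = 0.0109, edgeR). Of the 12 genes for MNK1, eIF4F subunits and eIF4E-binding proteins, 7 fell and 4 rose in TKO, beside 13.9% and 13.3% of all genes. Those that fell included EIF4A1, the cap-complex helicase, by 0.65 (SE 0.06, adjusted p = 8.51e-08), EIF4E by 0.32 (SE 0.07, adjusted p = 0.000919) and the repressor EIF4EBP1 by 0.34 (SE 0.06, adjusted p = 0.000235), all by the edgeR test. Besides MKNK1, EIF4E2 rose by 0.20 (SE 0.05, adjusted p = 0.00538, edgeR) and EIF4E3 by 0.25 (SE 0.08, adjusted p = 0.0290, edgeR). The repressor EIF4EBP2 also rose, by 0.19 (SE 0.05, adjusted p = 0.00507, edgeR). The median of the list was -0.18 in TKO and -0.07 in parental cells. EIF4A1 was at -0.45 in parental cells (SE 0.10, adjusted p = 0.0844, edgeR). With the pair term EIF4A1 was at -0.45 there (SE 0.06, adjusted p = 2.92e-08, edgeR).

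FAM136A (ENSG00000035141, chr2:70295975-70302090, minus strand) encodes a small protein of the mitochondrial intermembrane space. In TKO it was at 87.8, 82.8 and 84.1 CPM after siNT and at 36.5, 34.2 and 38.1 CPM after siMyc. In parental cells it was at 101.7, 85.6 and 86.7 CPM after siNT and at 42.2, 44.4 and 54.02 CPM after siMyc. The groups did not overlap, with siMyc at 42.7% and 51.3% of siNT, for log2 fold changes of -1.22 (SE 0.06) and -0.98 (SE 0.13). Of 19 other small or chaperone-related proteins of that compartment, 13 fell and none rose in TKO, with a median of -0.21. Over all genes tested, 13.9% fell and 13.3% rose. TIMM8A, an intermembrane import chaperone, had the lowest adjusted p and fell by 0.62 (SE 0.07, adjusted p = 9.62e-07), and CHCHD4, the import oxidoreductase, fell by 0.44 (SE 0.07, adjusted p = 4.62e-05), by the edgeR quasi-likelihood test, adjusted by Benjamini-Hochberg. CHCHD4 was named after its values were seen. In parental cells the median of the list was -0.13, and TIMM8A was at -0.48 (SE 0.14, adjusted p = 0.171, edgeR). With a term for the pair of parental libraries TIMM8A was at -0.48 there (SE 0.06, adjusted p = 2.59e-08, edgeR). SNRPG, a spliceosome gene 2235 bases from FAM136A, fell by 0.35 in TKO (SE 0.05, adjusted p = 4.3e-05, edgeR).

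C1QBP (ENSG00000108561, chr17:5432777-5448830, minus strand) encodes p32, a protein of the mitochondrial matrix needed for mitochondrial translation and also known as a binding partner of complement C1q. TKO libraries had 247, 233 and 244 CPM after siNT and 119, 125 and 125 CPM after siMyc. Parental cells had 277, 212 and 226 CPM after siNT and 144, 139 and 179 CPM after siMyc. The highest parental value of each arm belonged to the pair of libraries that stood apart, and the groups did not overlap in either population. The siMyc means were 51.0% and 64.6% of siNT, for log2 fold changes of -0.97 (SE 0.05) and -0.65 (SE 0.14), and the parental value was -0.66 (SE 0.05) without the pair.

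Of 16 other genes of mitochondrial transcription and translation, 11 fell and none rose in TKO, with a median of -0.31. The shares over all genes tested were 13.9% and 13.3%. LRPPRC, which stabilises mitochondrial mRNAs, had the lowest adjusted p of the list and fell by 0.54 (SE 0.05, adjusted p = 3.59e-08, the edgeR quasi-likelihood test, adjusted by Benjamini-Hochberg). In parental cells the median of the list was -0.23, and LRPPRC was at -0.42 (SE 0.11, adjusted p = 0.131, edgeR). With a term for the pair of parental libraries LRPPRC was at -0.42 there (SE 0.04, adjusted p = 2.3e-11, edgeR). Some genes next to C1QBP were lower in TKO too, while DERL2 on its other side was at 0.03 (adjusted p = 0.787, the edgeR test). DHX33, an RNA helicase gene annotated over part of the same strand, fell by 0.83 in TKO (SE 0.06, adjusted p = 1.66e-09), and NUP88, a nuclear pore gene 13101 bases away, fell by 0.50 (SE 0.05, adjusted p = 3.17e-07), both by the edgeR test. Where C1QBP and DHX33 exons overlap on the strand, reads cannot be assigned to one of them with certainty. The median over the 221 other genes in the same 20 Mb stretch of the chromosome was -0.02.

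**Figure D2:**
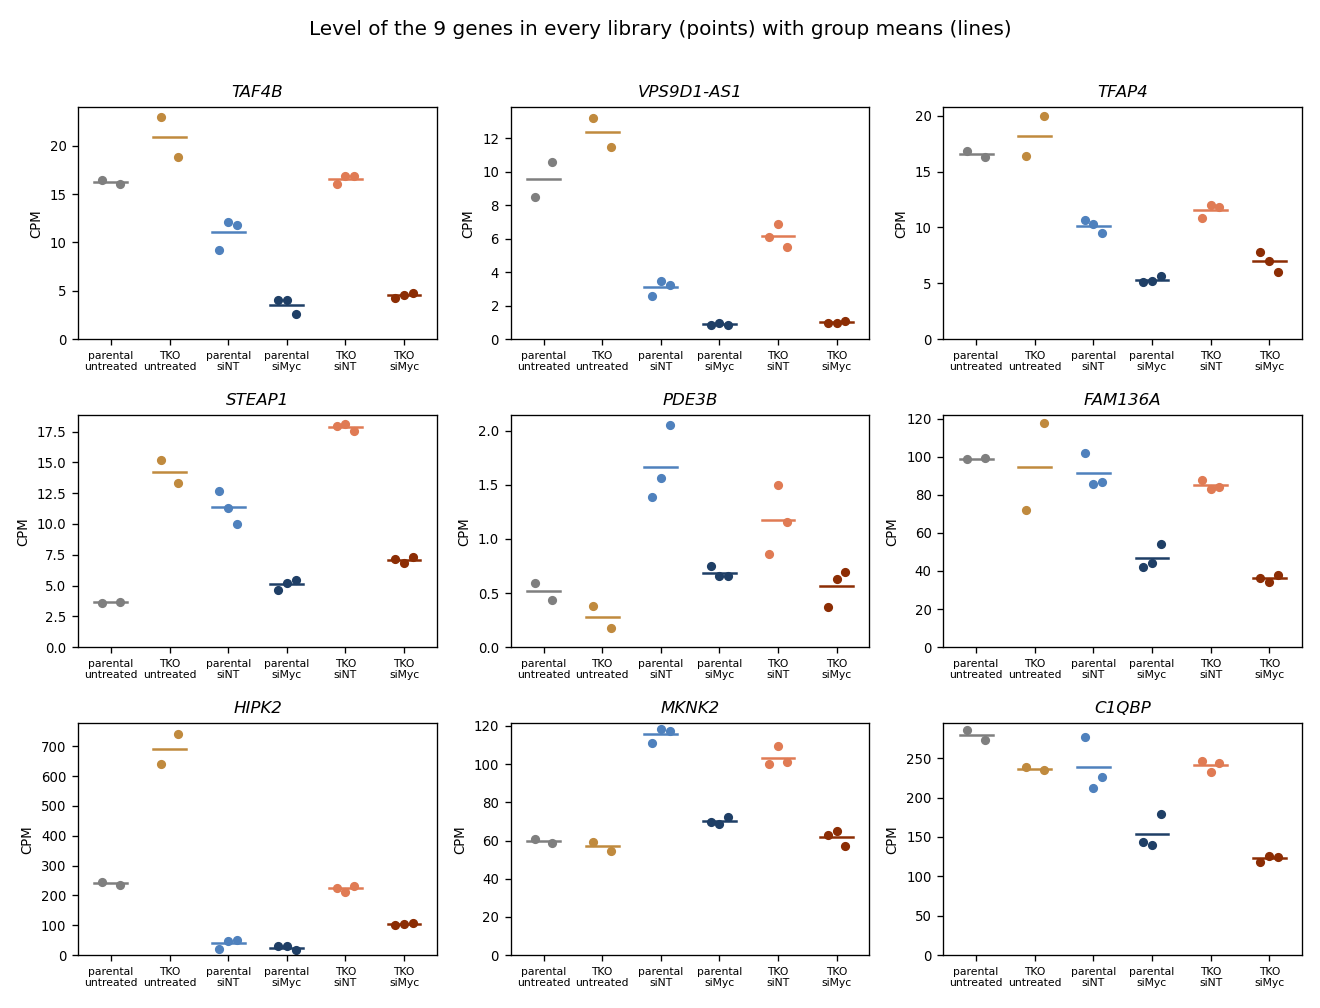
Level of each of the 9 genes in the 16 libraries, in CPM on a vertical axis of its own that starts at 0; points are libraries, lines are group means and the horizontal axis gives the 6 groups. The siMyc points lie below the siNT points of the same population in every panel except for HIPK2 in parental cells, where siNT replicate 1 at 21.8 CPM lies below 2 siMyc libraries.

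Counted together, all 9 genes had every siMyc library below every siNT library in TKO, and 8 of 9 did in parental cells. Over all genes tested, 19.8% showed this in TKO, 11.1% in parental cells and 7.34% in both. These libraries chose the genes, and nothing is read from the counts. The median log2 fold change of the 9 was -1.09 in TKO and -0.98 in parental cells, beside 0.01 and 0.00 over all genes tested. A log2 fold change of -1 or lower was found for 49 of 13406 genes with a mean of at least 1 CPM in TKO, 5 of them among the 9, and for 41 of 13408 in parental cells, 4 of them among the 9. PDE3B, with a mean of 0.879 CPM in TKO, fell short of that level minimum there. No numerical threshold was part of the choice, and below the 2 lowest genes the order was mixed with others, beginning with POLR3G at -1.65 in TKO and HERC2P2 at -1.49 in parental cells.

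**Figure D3:**
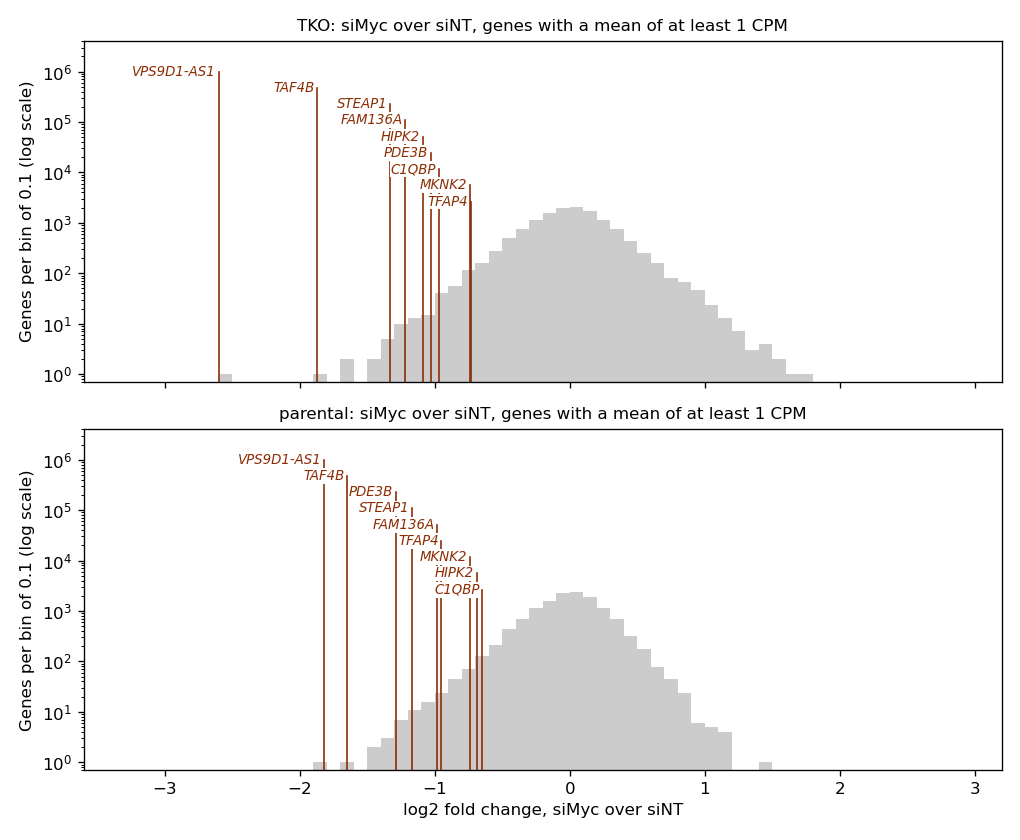
Number of genes (vertical, log scale) by log2 fold change of siMyc over siNT (horizontal, bins of 0.1) for genes with a mean of at least 1 CPM, in TKO (top) and parental cells (bottom); red lines mark the 9 genes. VPS9D1-AS1 and TAF4B stand at the lower end in both, at -2.60 and -1.87 in TKO and at -1.82 and -1.65 in parental cells, while MKNK2 at -0.74 and TFAP4 at -0.73 in TKO lie on the shoulder of the distribution. PDE3B is drawn in TKO although its mean there was under 1 CPM.

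The level of the 9 genes per kilobase of exon spread widely. In TKO after siNT the means were 103 CPM per kilobase for C1QBP, 27.5 for FAM136A, 19.8 for MKNK2, 14.3 for HIPK2, 11.6 for STEAP1, 3.52 for VPS9D1-AS1, 3.39 for TAF4B, 1.47 for TFAP4 and 0.101 for PDE3B. VPS9D1-AS1 and TAF4B did not differ beyond the spread of their libraries on this scale, at 3.13 to 3.94 and 3.28 to 3.46 CPM per kilobase. After siMyc TFAP4, at 0.884, and TAF4B, at 0.925, came close on the same scale, and VPS9D1-AS1 lay at 0.578. C1QBP and PDE3B, the highest and the lowest of the 9, kept similar shares of their siNT level in TKO, 51.0% and 48.1%.

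Because the responses chose the genes, the comparison of the responses between the populations is given as a description. The response of TKO minus that of parental cells was lowest for VPS9D1-AS1, at -0.75 on the log2 scale (SE 0.24), followed by HIPK2 at -0.37 (SE 0.44), C1QBP at -0.29 (SE 0.15), FAM136A at -0.21 (SE 0.14), TAF4B at -0.19 (SE 0.21) and STEAP1 at -0.12 (SE 0.15). MKNK2 stood at 0.02 (SE 0.11), TFAP4 at 0.25 (SE 0.16) and PDE3B at 0.29 (SE 0.38). The value was below 0 for 6 of the 9 genes. Without the pair of parental libraries the differences were -0.72 (SE 0.26) for VPS9D1-AS1, -0.38 (SE 0.09) for HIPK2, -0.34 (SE 0.08) for C1QBP, -0.32 (SE 0.15) for TAF4B, -0.23 (SE 0.09) for FAM136A, -0.21 (SE 0.14) for STEAP1, 0.02 (SE 0.09) for MKNK2, 0.20 (SE 0.15) for TFAP4 and 0.32 (SE 0.38) for PDE3B.

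Single libraries moved several of these differences. HIPK2 ran from -0.67 without parental siMyc replicate 3 to -0.12 without parental siNT replicate 1, and TAF4B from -0.43 without parental siMyc replicate 3 to -0.08 without parental siMyc replicate 1. C1QBP ran from -0.46 and FAM136A from -0.35, both without parental siNT replicate 1, to -0.21 and -0.14 without parental siMyc replicate 3. STEAP1 ran from -0.26 without parental siNT replicate 1 to -0.10 without parental siNT replicate 3. PDE3B ran from 0.05 without parental siNT replicate 3 to 0.51 without TKO siMyc replicate 1, and MKNK2 changed sign, from -0.05 without parental siNT replicate 3 to 0.07 without TKO siNT replicate 2. VPS9D1-AS1 stayed between -0.84 and -0.66 and TFAP4 between 0.16 and 0.35. For VPS9D1-AS1 the siNT means were 6.17 CPM in TKO and 3.11 CPM in parental cells, while the siMyc means were 1.01 and 0.892 CPM. MYC itself had a difference of -0.22 (SE 0.11, adjusted p = 1.00, the edgeR quasi-likelihood test, adjusted by Benjamini-Hochberg).

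**Figure D4:**
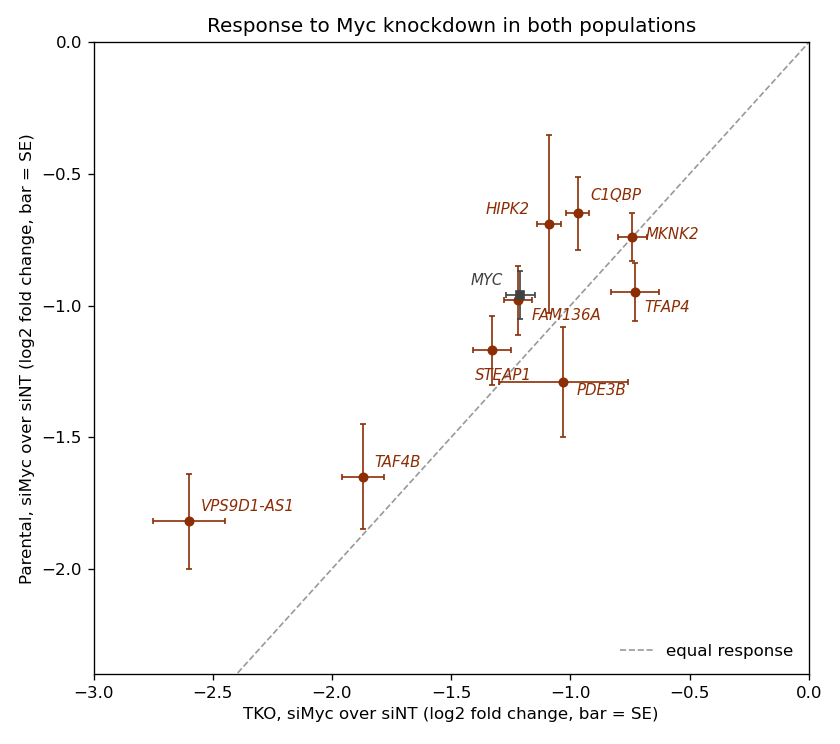
Log2 fold change of siMyc over siNT in TKO (horizontal) against parental cells (vertical) for the 9 genes (circles) and MYC (square), with SE bars; the dashed line marks equal responses. VPS9D1-AS1, at -2.60 and -1.82, lies farthest from the line, and HIPK2 has the widest bar in parental cells (SE 0.34).

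Over all 25812 genes, no gene passed the threshold for a difference in response between the populations with edgeR's quasi-likelihood test (0% called), 1039 had an unadjusted p under 0.05, and DESeq2 called 6. None of the 95 list genes tested was called by either tool, with 2 at an unadjusted p under 0.05. In the parental comparison edgeR called 0.354% of genes lower and 0.24% higher and none of the 95 list genes, of which 18 had an unadjusted p under 0.05, 14 of these lower. DESeq2 called 4 of them. With a term for the pair of parental libraries, 33 of the list genes fell and 17 rose, beside 13.1% and 13.7% of all genes tested in that fit, and without that pair 27 fell and 12 rose, beside 10.9% and 9.94% of all genes. The edgeR test in parental cells also depended on single libraries, with 141 genes called over all and none when siNT replicate 2, siNT replicate 3, siMyc replicate 1 or siMyc replicate 2 was left out. In TKO, 37 of 93 list genes fell and 13 rose, beside 13.9% and 13.3% of all genes tested.

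The untreated libraries ask whether the 9 genes differed between TKO and parental cells with no siRNA. Of the 9, STEAP1 and HIPK2 were higher in TKO and C1QBP was lower, 3 of 9 beside 9.61% of all genes tested (5.43% called higher and 4.18% called lower). STEAP1 rose by 1.89 on the log2 scale (SE 0.15, adjusted p = 0.00668, the edgeR quasi-likelihood test, adjusted by Benjamini-Hochberg), from the 3.58 and 3.70 CPM of parental cells to 15.2 and 13.3 CPM. HIPK2 rose by 1.45 (SE 0.09, adjusted p = 0.00439, edgeR), from 246 and 237 CPM to 640 and 741 CPM. C1QBP fell by 0.31 (SE 0.06, adjusted p = 0.0373, edgeR), from 286 and 273 CPM to 238 and 235 CPM.

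With 2 libraries a group these calls were fragile. Without either untreated parental library no gene was called, and the adjusted p was 0.347 or 0.312 for STEAP1 and for HIPK2 and 0.470 or 0.424 for C1QBP, with log2 fold changes of 1.86 or 1.92, 1.47 or 1.42 and -0.29 or -0.35. Without TKO replicate 1 or replicate 2 far more genes were called, and a count that rests on a lone TKO library is not read. The log2 fold changes were then 1.78 or 1.98 for STEAP1, 1.54 or 1.33 for HIPK2 and -0.34 or -0.31 for C1QBP.

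The remaining 6 genes did not pass the threshold. TAF4B was at 16.4 and 16.01 CPM in parental cells and at 22.9 and 18.9 CPM in TKO (0.29, SE 0.13, adjusted p = 0.234, the edgeR quasi-likelihood test, adjusted by Benjamini-Hochberg). The untreated groups did not overlap for TAF4B, nor for 57.7% of all genes tested, and likewise for VPS9D1-AS1 (0.30, SE 0.17, adjusted p = 0.337, edgeR). Without TKO replicate 2, TAF4B was at 0.42, and without TKO replicate 1 at 0.13. TFAP4 was at 16.8 and 16.3 CPM in parental cells and at 16.4 and 19.99 CPM in TKO (0.07, SE 0.13, adjusted p = 0.811, edgeR). FAM136A was at 98.9 and 99.0 CPM in parental cells and at 72.0 and 117 CPM in TKO (-0.14, SE 0.24, adjusted p = 0.789, edgeR). MKNK2 had a log2 fold change of -0.14 (SE 0.07, adjusted p = 0.300) and PDE3B of -0.96 (SE 0.51, adjusted p = 0.317) by the edgeR test.

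Where these genes lie was read beside the calls. In the 20 Mb stretch of the chromosome that holds each gene, with chromosomes divided evenly from their first base, the median log2 fold change of the untreated comparison was 0.39 for HIPK2, 0.34 for TAF4B, -0.36 for C1QBP and 0.04 for STEAP1. The difference of C1QBP was thus the size of the median of its region, and NUP88 next to it fell by 0.36 (SE 0.06, adjusted p = 0.0245, the edgeR quasi-likelihood test, adjusted by Benjamini-Hochberg). STEAP2, the neighbour of STEAP1, rose by 1.32 (SE 0.16, adjusted p = 0.0146) and STEAP3, on another chromosome, by 0.51 (SE 0.07, adjusted p = 0.0172), both by edgeR. TBXAS1, which overlaps HIPK2 on the opposite strand, rose by 1.29 (SE 0.17, adjusted p = 0.0172, edgeR). HIPK1 and HIPK3 had values of -0.10 and -0.10 (adjusted p = 0.392 and 0.588, edgeR). After siNT, the TKO over parental medians of these stretches were 0.39 for HIPK2, -0.01 for TAF4B, -0.05 for C1QBP and 0.10 for STEAP1. The part of regional dosage in these differences was not tested.

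After siNT, the same contrast gave 2.45 (SE 0.33) for HIPK2, 0.95 (SE 0.14) for VPS9D1-AS1, 0.62 (SE 0.10) for STEAP1, 0.55 (SE 0.14) for TAF4B, 0.15 (SE 0.11) for TFAP4, -0.02 (SE 0.11) for C1QBP, -0.14 (SE 0.10) for FAM136A, -0.19 (SE 0.08) for MKNK2 and -0.55 (SE 0.24) for PDE3B. These are descriptions, since the siNT libraries took part in the choice, and they compare libraries whose names begin with different numbers. HIPK2 and STEAP1 were higher in TKO in both settings, with HIPK2 farther apart after siNT and STEAP1 less so. For HIPK2 the parental mean was 241 CPM untreated and 40.0 CPM after siNT, and the TKO mean was 691 and 224 CPM. Genes of 8000 exonic bases or more had a median of -0.43 for parental siNT minus untreated, -0.30 for TKO siNT minus untreated and 0.23 for TKO siNT minus parental siNT, on the log2 scale. The corresponding differences for HIPK2 were -2.67, -1.62 and 2.56. Genes under 2000 bases had medians of 0.98, 0.48 and -0.22 for the same differences, beside 1.51, 0.32 and 0.64 for STEAP1. VPS9D1-AS1, also under 2000 bases, was at -1.48, -0.95 and 0.89. The part of exonic length in these values was not tested. With 1 library left out, the siNT contrast of HIPK2 ran from 2.18 without parental siNT replicate 1 to 2.71 without parental siNT replicate 3. C1QBP changed sign, from -0.09 without parental siNT replicate 2 to 0.13 without parental siNT replicate 1, and FAM136A ran from -0.18 to -0.03 without the same libraries. PDE3B ran from -0.76 without TKO siNT replicate 2 to -0.34 without parental siNT replicate 3. Without the pair of parental libraries the contrast was 2.19 (SE 0.06) for HIPK2, 0.87 (SE 0.14) for VPS9D1-AS1, 0.74 (SE 0.09) for STEAP1, 0.47 (SE 0.09) for TAF4B, 0.22 (SE 0.10) for TFAP4, 0.14 (SE 0.06) for C1QBP, -0.02 (SE 0.06) for FAM136A, -0.19 (SE 0.06) for MKNK2 and -0.63 (SE 0.23) for PDE3B.

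**Figure D5:**
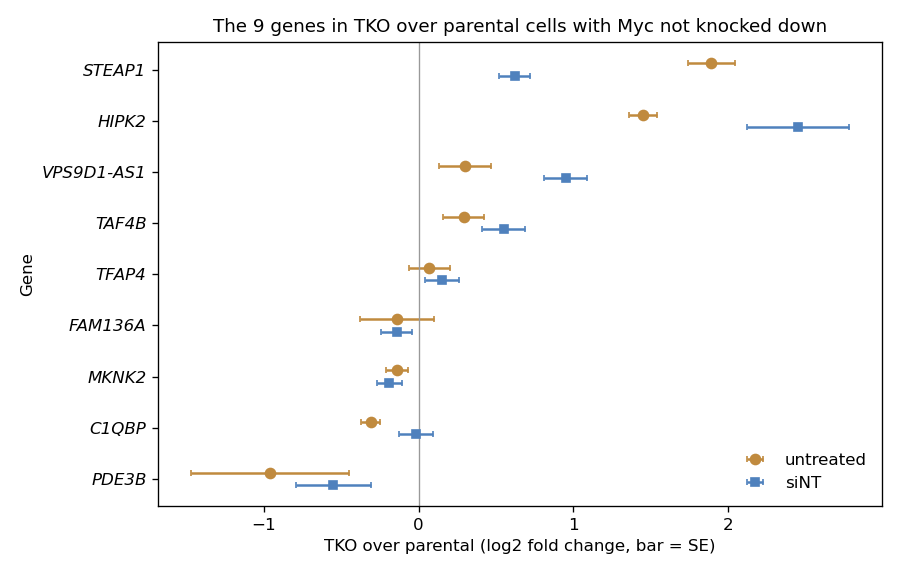
Log2 fold change of TKO over parental cells for the 9 genes in untreated libraries (circles) and after siNT (squares), with SE bars. STEAP1 and HIPK2 lie farthest to the right in the untreated libraries, at 1.89 and 1.45, and PDE3B, the gene with the fewest reads, has the widest untreated bar (SE 0.51).

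Across the 16 libraries, the levels of the 9 genes on the scale log2(CPM + 0.5) were alike to different degrees. The points share population, siRNA and read layout, and the correlations are descriptions. TAF4B, VPS9D1-AS1 and TFAP4 followed one another, with r of 0.96 for TAF4B and VPS9D1-AS1, 0.96 for VPS9D1-AS1 and TFAP4 and 0.92 for TAF4B and TFAP4. FAM136A and C1QBP, both mitochondrial, were at 0.96, and PDE3B and MKNK2, whose siNT means were above the untreated means in both populations, at 0.92. HIPK2 and PDE3B were the least alike, at -0.45. STEAP1, whose siNT means were also above the untreated means in both populations, had no r above 0.56 with another of the 9.

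Outside the 9, the gene most like TAF4B over the 16 libraries was PPAT (r = 0.974), which encodes the first enzyme of purine synthesis. VPS9D1-AS1 was most like POLR1E (r = 0.993), an RNA polymerase I subunit gene, and TFAP4 most like DKC1 (r = 0.971), which encodes the pseudouridine synthase dyskerin. POLR1E stood at 53.3, 51.1 and 53.4 CPM after siNT and at 27.5, 28.5 and 27.7 CPM after siMyc in TKO. FAM136A and C1QBP shared the gene most like them, PDSS1 (r = 0.969 and 0.983), an enzyme gene of coenzyme Q synthesis, and MKNK2 was most like TOMM40 (r = 0.962), the channel of the mitochondrial outer membrane translocase. HIPK2 was most like the mitotic checkpoint kinase gene BUB1 (r = 0.993), STEAP1 like STAMBPL1 (r = 0.915) and PDE3B like ATF3 (r = 0.871), a stress-induced transcription factor gene. These r values were the highest of 13392 genes and are described without a test.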

How the data were processed

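Polyadenylated RNA of 16 libraries was prepared with a stranded mRNA kit. Per the labels and the file headers, the authors aligned reads with STAR to GRCh38 (version not given in the sources used here) and deposited whole-number counts per Ensembl gene from featureCounts 1.6.3 with strand used. Single reads were counted for untreated cells and pairs after siRNA, with annotation release 102, except release 104 for the parental siRNA libraries. The 9 genes have the same exonic length in both releases.

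Genes whose counts within a comparison summed to more than 5 were fitted with edgeR 4.0.16 (R 4.3.3; trimmed-mean-of-M-values factors, robust quasi-likelihood) and adjusted by Benjamini-Hochberg over all genes at a threshold of 0.05. The SE is the log2 fold change divided by the square root of the F statistic. Untreated comparisons used 4 libraries, each siMyc comparison 6, and the difference in response and the siNT contrast 12. Ranks cover genes at a mean of 1 CPM or more, and likeness used log2(CPM + 0.5). DESeq2 1.42.0, its size factors, sva 3.50.0, other filters, a replicate block and left-out libraries were tried. The main fits of the untreated comparison, of the siMyc comparisons and of the difference in response were checked on simulated counts. The siNT contrast and the alternatives were not. The simulated libraries were independent and every gene had the same dispersion, so the check does not cover libraries that deviate together.

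The 9 genes and the family lists were chosen with earlier results of these data known. Named were the 9, MYC, TXNIP, close paralogs, the lowest adjusted p of each list per siMyc comparison, neighbouring and overlapping genes, and the gene most like each of the 9, and others are stated as such or illustrate a count. Total counts of 18953668 to 59799444 limit the precision of PDE3B and VPS9D1-AS1 most. Per the file headers every file holds 1 count column.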

Additional observations from a re-analysis of the deposited data

How the results depend on the processing

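For the 9 genes, each log2 fold change of siMyc over siNT kept its sign in 13 alternatives for TKO and 15 for parental cells. Their median ran from -1.22 to -1.06 with 1 library of TKO left out (-1.22 without siMyc replicate 3 and -1.20 without siNT replicate 1) and from -1.11 to -0.93 with 1 parental library left out. Counts of calls depended more on the setting. In TKO, 6106 genes and 50 list genes were called, and 2493 and 15 in 1 fit of the 12 siRNA libraries. In parental cells, 141 genes and 0 list genes were called. The counts were 91 with DESeq2's size factors in edgeR, 1099 and 4 with DESeq2, 330 and 1 with no filter, 225 and 1 with more than 5 counts in every library, 1666 and 8 in 1 fit of the 12 libraries, and 6392 and 49 with 1 surrogate variable. Chosen after seeing the data, a term for the pair of libraries gave 6363 and 50 and leaving the pair out gave 4673 and 39. Leaving out 1 library gave 0 to 160. For the difference in response, 0 genes were called, and 6 with DESeq2, 144 with 1 surrogate variable (1 list gene), 147 with a term for the pair, 63 without it and 0 with any 1 library left out.

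In the untreated comparison, 1919 genes, 17 list genes and 3 of the 9 genes were called. Leaving out 1 library gave 0 to 7002 genes, 0 to 54 list genes and 0 to 5 of the 9, with medians of the 9 from -0.09 to 0.16. FAM136A changed sign to 0.16 without TKO replicate 1 and was at -0.54 without replicate 2. TFAP4 changed sign to -0.09 without TKO replicate 2 and was at 0.19 without replicate 1. A lone library left in a group is assumed to vary like the other group. The cause of these changes was not tested. With CACGCG counted beside CACGTG, 3 in place of 1 of the 6 promoter windows held an E-box. The share of all windows was then 17.4% in place of 7.26%. In STEAP1 the match lies after the start, at position 7.

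Replicate numbers did not pair the libraries. Same-numbered libraries had correlations of deviations of 0.027 in untreated cells, -0.132, 0.095 and 0.229 in TKO and -0.785, 0.597 and -0.722 in parental cells, and not every library correlated best with its own number. With a replicate block the calls were 904 genes and 9 list genes in the untreated comparison, where C1QBP had an adjusted p of 0.101 (edgeR), and 0 genes in the parental comparison.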

Other observations

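Some other members of the gene lists built around the 9 genes differed between the untreated populations, and those named here were chosen after their values were seen. PDE1C, which hydrolyses both cAMP and cGMP, was at 37.1 and 34.6 CPM in untreated parental cells and at 0.0684 and 0 CPM in untreated TKO, and ran from 11.04 to 16.2 CPM in the parental siRNA libraries and from 0 to 0.0623 CPM in those of TKO. MITF, a basic helix-loop-helix leucine zipper factor, was at 70.2 and 67.5 CPM in untreated parental cells and at 22.0 and 19.99 CPM in untreated TKO (adjusted p = 0.00297, the edgeR quasi-likelihood test, adjusted by Benjamini-Hochberg). After siNT it was at 25.2 to 30.2 CPM in parental cells and at 7.31 to 7.73 CPM in TKO. EIF4E, the substrate of the kinase encoded by MKNK2, was at 23.0 and 22.8 CPM in untreated parental cells and at 46.3 and 45.9 CPM in untreated TKO (adjusted p = 0.00726, edgeR), but at 74.5 to 80.5 CPM and 75.1 to 85.5 CPM after siNT, where the populations overlapped.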
